A study of Mus musculus with 8 samples.

Results

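The subject is the contrast between exosomal miRNAs of the cerebrospinal fluid (CSF), which bathes the brain and spinal cord, and those of blood plasma in the same mouse study. Members were chosen by name alone: the 4 CSF libraries and the 4 plasma libraries, which are all 8 libraries of the series, compared over the 1960 mature miRNAs listed in both deposited tables, of 1961 in the CSF table and 1977 in the plasma table. The mice were adult, wild-type females and males. Each fluid had 1 library of baseline females, 1 of DOCA-salt females (deoxycorticosterone acetate plus salt, a mineralocorticoid model of high blood pressure), 1 of baseline males and 1 of DOCA-salt males. Values of a fluid are always given in that order. All libraries carry the same batch label, and the labels do not say which mice, or how many, gave each library, so a p-value measures the spread between these unlike libraries and not between mice of a kind.

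A miRNA is cut from a hairpin whose arms give a 5p and a 3p strand, of which one, the guide, is usually kept by Argonaute while the other, the passenger, is lost. The guide finds messenger RNAs mainly through its seed, bases 2 to 8, so that miRNAs of one seed are treated as a family. Exosomes are small vesicles that cells release. Those of CSF are thought to come from cells such as neurons, glia and the choroid plexus, the epithelium that makes the fluid, and those of plasma largely from blood cells, platelets and endothelium. In such bulk samples, fewer vesicles of a source and less RNA in each vesicle cannot be told apart.

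The sequences on which the results turn are printed from RefSeq (GRCm38.p6), 5′ to 3′, with the seed in capitals. The first set holds miRNAs that were high in CSF against plasma. miR-3473b and miR-3473e share their seed, and whether reads were shared between them is not known.
miR-206-3p: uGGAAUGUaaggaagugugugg
miR-133b-3p: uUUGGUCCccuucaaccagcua
miR-183-5p: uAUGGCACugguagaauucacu
miR-3473e: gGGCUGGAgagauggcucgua
miR-3473b: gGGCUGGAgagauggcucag
miR-9-5p: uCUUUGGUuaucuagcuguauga
miR-9-3p: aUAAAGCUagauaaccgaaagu
miR-204-5p: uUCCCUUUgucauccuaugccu

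The second set holds miRNAs that were low in CSF against plasma. The miR-200 family carries the seed AACACUG in miR-200a-3p and miR-141-3p and the seed AAUACUG in miR-200c-3p and miR-429-3p.
miR-200a-3p: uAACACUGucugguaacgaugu
miR-141-3p: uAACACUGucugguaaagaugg
miR-200c-3p: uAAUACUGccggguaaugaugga
miR-429-3p: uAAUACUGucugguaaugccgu
miR-142a-3p: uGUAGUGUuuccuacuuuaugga

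The third set holds both strands of hairpins whose strands moved in opposite directions. The strands of one hairpin carry different seeds. The strands of miR-30a and miR-30e share their seeds arm by arm, as do the 3p strands of miR-148a and miR-152.
miR-30a-5p: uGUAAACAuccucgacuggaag
miR-30a-3p: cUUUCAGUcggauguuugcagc
miR-30e-5p: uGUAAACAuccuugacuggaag
miR-30e-3p: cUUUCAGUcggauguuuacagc
miR-148a-5p: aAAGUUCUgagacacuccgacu
miR-148a-3p: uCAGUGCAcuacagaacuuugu
miR-152-5p: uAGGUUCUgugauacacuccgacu
miR-152-3p: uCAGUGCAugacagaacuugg
miR-134-5p: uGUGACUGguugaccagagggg
miR-134-3p: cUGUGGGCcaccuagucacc

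Each count is a number of unique molecular identifiers (UMIs), and CSF libraries held 237878, 303625, 753144 and 1082504 UMIs, against 279864, 337240, 158572 and 304696 in plasma. CSF libraries had 1.27, 1.19, 1.40 and 1.69 reads per UMI, whereas plasma libraries had 4.15, 4.45, 6.19 and 3.68, so plasma libraries were read more deeply per molecule. The part of that difference in the results was not tested beyond the use of read counts as an alternative. Libraries of a fluid resembled each other. Spearman's rho across tested miRNAs, which are not independent, was 0.819 to 0.871 between CSF libraries and 0.754 to 0.894 between plasma libraries, but 0.383 to 0.524 between a CSF and a plasma library. For miR-206-3p and miR-1a-3p in CSF, the deposited CPM of each is the one that belongs to the UMI count of the other. Both are named here as the count rows label them.

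CSF libraries were dominated by a few miRNAs of striated muscle, and plasma libraries were more even. The effective number of miRNAs, the exponential of the Shannon entropy of the shares, was 51.6, 57.5, 19.44 and 26.9 in CSF, against 107.6, 101.7, 137.1 and 145.4 in plasma. The groups did not overlap (38.9 ± 18.5 in CSF and 123.0 ± 21.5 in plasma, SD, n = 4 each; exact two-sided permutation p = 0.0286, the smallest that 4 against 4 can give). At an equal depth of 158550 UMIs, CSF libraries showed 1739, 1662, 1443 and 1389 of the miRNAs, against 1876, 1832, 1926 and 1888 in plasma libraries (exact permutation p = 0.0286). The 10 most abundant miRNAs held 61.5, 58.2, 74.6 and 73.0% of CSF UMIs, against 49.0, 46.7, 43.3 and 41.0% of plasma UMIs (exact permutation p = 0.0286). The male CSF libraries were the least even of all 8. With the striated muscle lists left out of every library, the CSF minus plasma difference in effective number was -37.05 (exact permutation p = 0.0857) and no longer passed, nor did the share of the 10 most abundant miRNAs (exact permutation p = 0.114) or the number detected at equal depth (exact permutation p = 0.0571). The number detected also did not pass without any 1 plasma library (exact permutation p = 0.0571 each), although the groups still did not overlap.

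**Figure D1:**
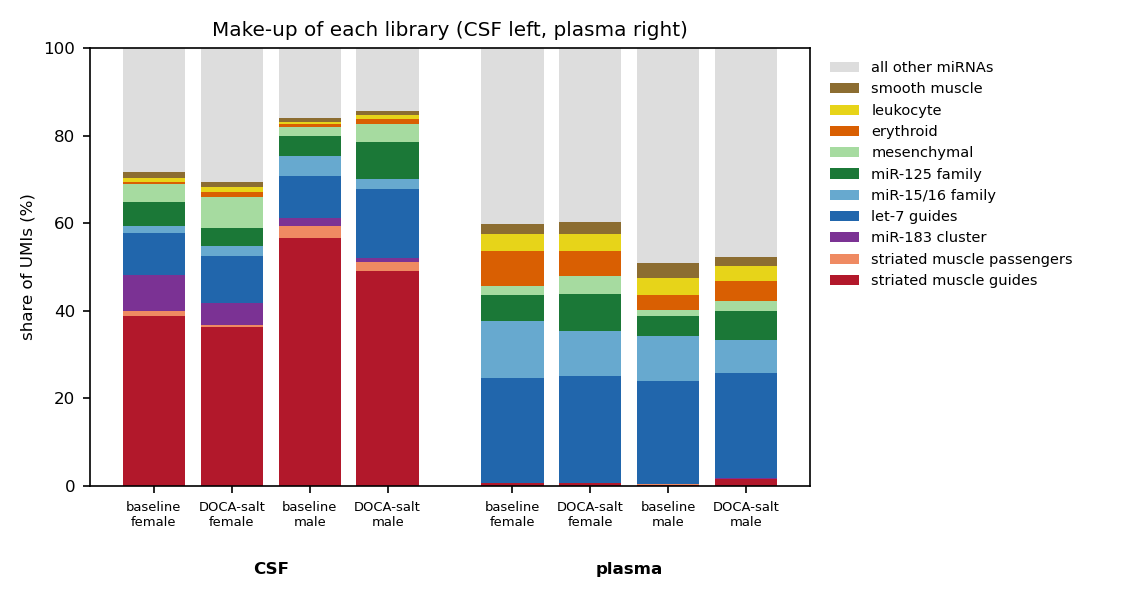
Share of UMIs (%) taken in each library by 10 groups of miRNAs that share no member, with all other miRNAs in grey; CSF libraries stand left and plasma libraries right. Striated muscle guides fill 36.3 to 56.6% of CSF libraries and 0.293 to 1.504% of plasma libraries, while let-7 guides fill 9.64 to 15.7% of CSF and 23.5 to 24.3% of plasma.

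This unevenness bears on how the fluids can be compared. A share of a library must fall for every other miRNA when a few take a large part, so each miRNA was compared both as a share (total-count scaling) and after TMM scaling, which assumes that most miRNAs do not differ. With TMM scaling, 593 of 1146 tested miRNAs were called by edgeR's quasi-likelihood test at a Benjamini-Hochberg adjusted p under 0.05 (51.7%), 300 higher (26.2%) and 293 lower (25.6%) in CSF. As shares, 794 were called (69.3%), 64 higher (5.58%) and 730 lower (63.7%). The median log2 fold change of all tested miRNAs, CSF over plasma, was -0.12 with TMM and -1.70 as shares. Directions of moderate changes therefore rest on the scaling. With totals that left out the striated muscle lists, the median was -0.81, with 633 called (55.2%), 160 called higher (14.0%) and 473 lower (41.3%). The size factors of DESeq2 gave 585 calls (51.0%), 316 higher (27.6%) and 269 lower (23.5%), with a median of -0.05.

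The calls common to all 4 scalings were 64 miRNAs higher in CSF (5.58% of those tested) and 269 lower (23.5%). These numbers equal the 64 called higher as shares and the 269 called lower with DESeq2 size factors. The imbalance between them therefore rests on which scalings were compared. The 4 CSF libraries lay above all plasma libraries for 253 miRNAs (22.1%) in TMM-scaled CPM and for 43 (3.75%) as shares. They lay below all plasma libraries for 246 (21.5%) in TMM-scaled CPM and for 632 (55.1%) as shares. Among the 593 called with TMM, 543 moved in the same direction in all 4 combinations of sex and treatment, 275 of them higher and 268 lower in CSF.

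**Figure D2:**
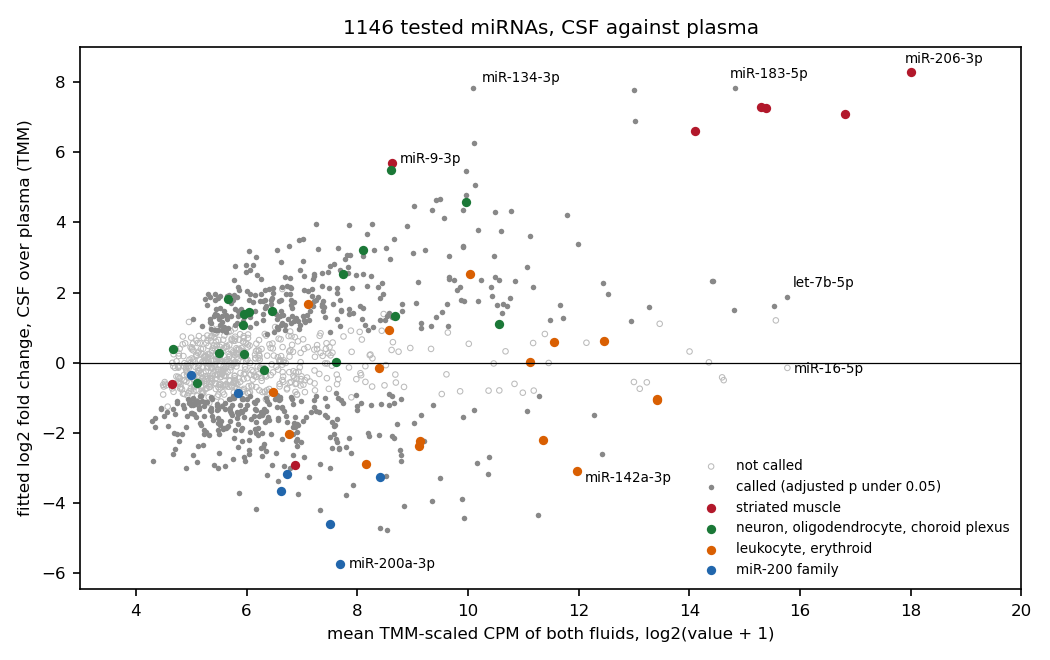
Fitted log2 fold change, CSF over plasma with TMM scaling, against the mean TMM-scaled CPM of both fluids as log2(value + 1), for the 1146 tested miRNAs, with filled grey points called at an adjusted p under 0.05; coloured points are list members, called or not. Striated muscle guides stand at 7.10 to 8.30 and miR-200a-3p at -5.76, while let-7b-5p, among the most abundant in both fluids, stands at 1.86.

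Of the striated muscle guides, 4 of 8 passed the count filter and all 4 rose in CSF by every scaling, against 5.58% of all tested miRNAs. miR-133a-3p, which acts with miR-1 in muscle growth and differentiation, took 5.12, 4.28, 4.32 and 4.32% of CSF UMIs, against 0.0886, 0.0860, 0.0429 and 0.158% of plasma UMIs. The CSF shares of this miRNA were nearly level. Its near-copy miR-133b-3p took 4.98, 4.204, 3.84 and 4.09% of CSF, against 0.0833, 0.0771, 0.0410 and 0.143% of plasma. The log2 fold change of miR-133b-3p was 7.30 ± 0.73 with TMM (SE, edgeR adjusted p = 4.36e-07) and 5.63 as shares. The counts of miR-133a-3p and miR-133b-3p were nearly equal in every library, so reads may be shared between them.

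The other abundant muscle miRNAs were far less level within CSF. The row labelled miR-206-3p, a miRNA of skeletal muscle, held 47613, 20182, 336328 and 258899 UMIs in CSF (20.02, 6.65, 44.7 and 23.9% of each library), against 266, 956, 98 and 2097 UMIs in plasma. The row labelled miR-1a-3p, the miR-1 of heart and skeletal muscle, held 20411, 64158, 28551 and 181736 UMIs in CSF, against 897, 649, 207 and 1538 in plasma. In the DOCA-salt female CSF the row labelled miR-1a-3p led, and in the baseline male CSF the row labelled miR-206-3p did. In the baseline male plasma, miR-206-3p had 81.6 reads per UMI where the median of that library was 6.82, so its read count there is out of proportion to its molecules. The log2 fold change of miR-206-3p was 8.30 ± 1.19 and that of miR-1a-3p 7.10 ± 0.88 with TMM (SE, edgeR adjusted p = 1.7e-05 and 4.16e-06).

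The muscle signal did not extend to the miRNAs encoded in myosin genes. miR-208a-3p had 3, 4, 1 and 3 UMIs in CSF, against 9, 7, 8 and 5 in plasma, and miR-499-5p had 3, 4, 5 and 7 UMIs in CSF, against 7, 6, 5 and 12 in plasma. These are markers of heart and slow muscle, and both were near the floor of detection in both fluids. miR-208a-5p, from the same intron of the cardiac myosin gene Myh6, fell, with 5, 15, 3 and 6 UMIs in CSF, against 44, 91, 114 and 105 in plasma (-2.92 ± 0.52, edgeR adjusted p = 0.000158). This strand had 1.71, 1.70, 1.19 and 1.71 reads per UMI in plasma, where library medians were 4.59, 4.98, 6.82 and 4.0. Its UMI counts in plasma were thus high for its reads. Passenger strands differed among themselves. miR-1b-5p took most of the passenger share in CSF. It held 1.19, 0.388, 2.71 and 1.94% of CSF, against 0.0615, 0.04715, 0.0473 and 0.0906% of plasma. Its log2 fold change was 6.61 ± 0.82 with TMM (edgeR adjusted p = 3.87e-06). It had 1.04, 1.035, 1.05 and 1.07 reads per UMI in CSF, where library medians were 1.33, 1.2, 1.49 and 1.89. Its UMI counts in CSF were thus high for its reads. Its opposite strand miR-1b-3p had 0, 4, 2 and 3 UMIs in CSF, against 16, 7, 4 and 3 in plasma. miR-1a-1-5p, the opposite strand of miR-1a-3p, had 74, 28, 452 and 450 UMIs in CSF, against 5, 10, 1 and 12 in plasma (log2 fold change 5.71 ± 0.72, edgeR adjusted p = 4.34e-06). In CSF it had 1.55, 1.39, 1.34 and 1.74 UMIs per 1000 of the row labelled miR-206-3p and 3.63, 0.436, 15.8 and 2.48 per 1000 of the row labelled miR-1a-3p, a nearly level ratio to the first row and an uneven one to the second. In plasma it had 18.8, 10.5, 10.2 and 5.72 UMIs per 1000 of miR-206-3p and 5.57, 15.4, 4.83 and 7.80 per 1000 of miR-1a-3p. With both rows exchanged in CSF, the TMM log2 fold change of miR-1a-3p became 8.30, and that of miR-206-3p became 7.11. miR-206-5p had 2, 3, 12 and 5 UMIs in CSF, against 23, 13, 7 and 11 in plasma, and was not called with TMM (-0.61 ± 0.49, edgeR adjusted p = 0.315). Over the list of passengers, 4 of 9 members were tested, of which 2 rose and 1 fell with TMM, against 26.2% and 25.6% of all tested miRNAs.

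miR-183-5p, best known from sensory cells of the eye, ear and dorsal root ganglia, departed from the rest of its cluster. It held 19436, 15561, 13421 and 10177 UMIs in CSF, against 66, 117, 44 and 279 in plasma, with a log2 fold change of 7.83 ± 0.78 (SE, edgeR adjusted p = 4.36e-07). The hairpin lies on chromosome 6 of mm10, with miR-183-5p at chr6:30169711-30169732 on the minus strand, outside annotated host genes. miR-182-5p, from chr6:30165962-30165986 of the same cluster, had 39, 35, 42 and 63 UMIs in CSF, against 42, 74, 82 and 427 in plasma (-0.99 ± 0.50, edgeR adjusted p = 0.108). miR-96-5p, the third member, had 2, 2, 2 and 3 UMIs in CSF, against 2, 6, 7 and 19 in plasma, and miR-183-3p had 4, 0, 3 and 1 in CSF, against 5, 3, 6 and 5 in plasma. The rise of the cluster in CSF was thus carried by miR-183-5p, whose share was 1.78 and 0.940% in the male CSF libraries and 8.17 and 5.12% in the female ones.

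miR-3473e and miR-3473b, whose functions are little known, were likewise lowest by share in the male CSF libraries. miR-3473e held 5251, 4016, 4764 and 2764 UMIs in CSF, against 29, 54, 12 and 48 in plasma (7.77 ± 0.67, edgeR adjusted p = 7.92e-08). miR-3473b held 5194, 4091, 4881 and 2823 UMIs in CSF, against 57, 74, 38 and 91 in plasma (6.89 ± 0.61, edgeR adjusted p = 9.18e-08). Within CSF the counts of the pair were nearly equal, and within plasma they were not. miR-3473e lies in an intron of Rbks at chr5:31667296-31667316 (minus strand), and miR-3473b at chr10:41670774-41670793 (plus strand) outside annotated genes.

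Among miRNAs of brain cells, a few rose in CSF by every scaling and most did not. miR-9-5p, which guides neural progenitors, held 272, 261, 481 and 1468 UMIs in CSF, against 40, 34, 36 and 31 in plasma. Its share was 0.114, 0.0860, 0.0639 and 0.136% of CSF, against 0.0143, 0.0101, 0.0227 and 0.0102% of plasma. Its other strand miR-9-3p held 127, 127, 210 and 486 UMIs in CSF, against 8, 11, 6 and 5 in plasma. The log2 fold changes were 4.58 ± 0.50 and 5.50 ± 0.48 with TMM (SE, edgeR adjusted p = 1.04e-06 and 7.92e-08), and 2.82 and 3.87 as shares. Both strands of miR-9 moved together, unlike those of many hairpins described below.

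The neuron list had 12 of 18 members tested, of which 7 rose and none fell with TMM (median log2 fold change 1.22, against -0.12 for all tested miRNAs), and 2 rose and 3 fell as shares. Of all tested miRNAs, 26.2% rose and 25.6% fell with TMM, and 5.58% rose and 63.7% fell as shares. The members that rose by every scaling were both strands of miR-9. miR-129-5p (1.81), miR-132-3p (1.44), miR-383-5p (1.37), miR-7a-5p (1.34) and miR-137-3p (1.08) were the others called with TMM, given as log2 fold changes. miR-128-3p, a broadly neuronal miRNA, had 206, 317, 673 and 1450 UMIs in CSF, against 748, 428, 190 and 437 in plasma (1.09 ± 0.46, edgeR adjusted p = 0.0521). miR-124-3p, the most abundant miRNA of mature neurons, had 5, 3, 5 and 31 UMIs in CSF, against 15, 5, 21 and 14 in plasma and did not pass the count filter. The defining marker of neurons was therefore near the floor in both fluids, and the summed share of the list overlapped between them, at 0.319, 0.280, 0.247 and 0.403% of CSF, against 0.408, 0.241, 0.324 and 0.333% of plasma.

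miR-204-5p, the best-known miRNA of the choroid plexus and of pigmented epithelia, was higher in every CSF library. It held 47, 62, 165 and 380 UMIs in CSF, against 31, 25, 13 and 30 in plasma, or 0.0198, 0.0204, 0.0219 and 0.0351% of CSF, against 0.0111, 0.00741, 0.00820 and 0.00985% of plasma. Its log2 fold change was 3.22 ± 0.46 with TMM (SE, edgeR adjusted p = 1.74e-05) and 1.41 as shares (edgeR adjusted p = 0.00799). miR-211-5p, which has the seed of miR-204-5p and a different host gene, did not pass with TMM (0.25 ± 0.37, edgeR adjusted p = 0.595) and fell as a share (-1.32, edgeR adjusted p = 0.0257). The third tested member of the choroid plexus list, miR-211-3p, had -1.31 as a share (edgeR adjusted p = 0.0506). The summed share of the list overlapped between the fluids, at 0.0366, 0.0313, 0.0291 and 0.0405% of CSF, against 0.0372, 0.0202, 0.0271 and 0.0348% of plasma. The oligodendrocyte miRNA miR-219a-2-3p held 63, 36, 92 and 275 UMIs in CSF, against 32, 25, 21 and 37 in plasma, and rose with TMM (2.53 ± 0.43, edgeR adjusted p = 8.97e-05) but not as a share (0.79, edgeR adjusted p = 0.136). Its partner miR-338-3p did likewise (1.47 with TMM, -0.42 as a share).

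**Figure D3:**
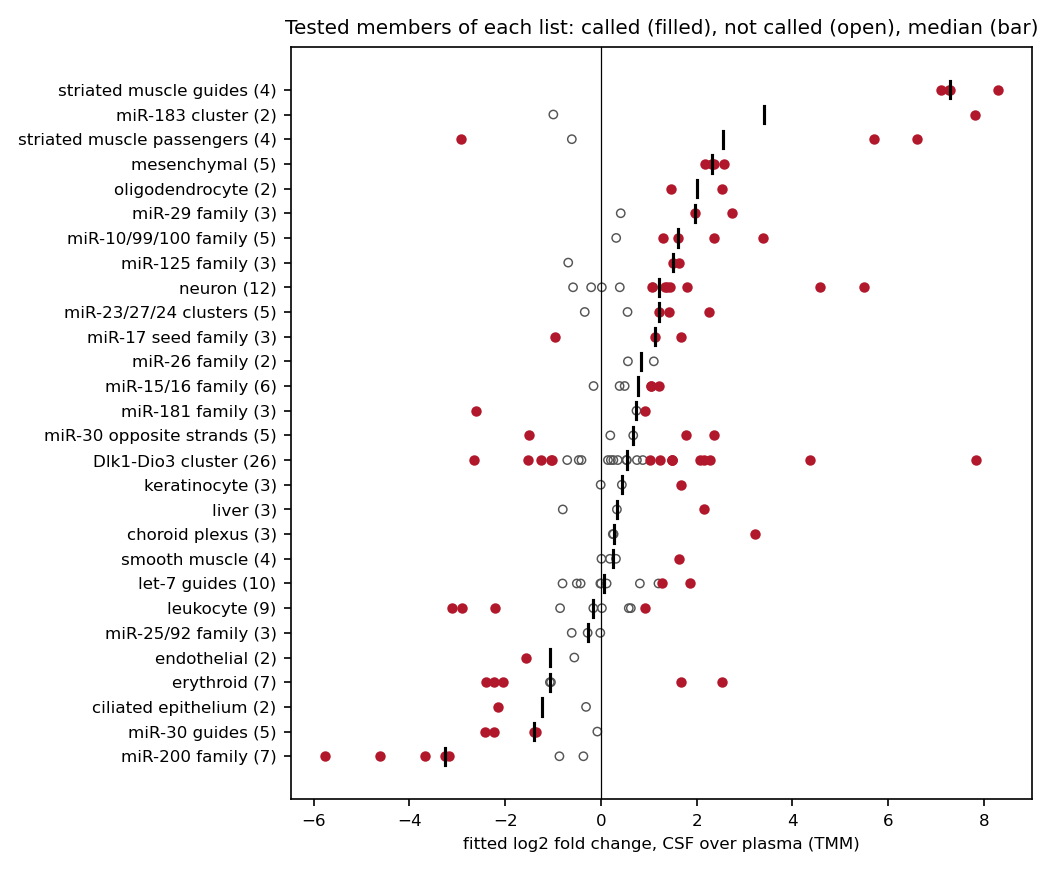
Fitted log2 fold change, CSF over plasma with TMM scaling, of every tested member of 28 lists, ordered by the list's median (black bar); filled points were called and open points were not, and the number tested stands in brackets. Striated muscle guides have a median of 7.28 and the miR-200 family one of -3.26. Many of the lists between them mix called and uncalled members. The mesenchymal, oligodendrocyte and miR-17 seed lists have only called members, and the miR-25/92 and miR-26 families have none.

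CSF was lowest relative to plasma, among the 28 lists, for the miR-200 family, which keeps epithelial cells from changing to a mesenchymal state. Of its 7 tested members, of 10 on the list, 5 fell in CSF by every scaling and none rose, with a median log2 fold change of -3.26 against -0.12 for all tested miRNAs, of which 23.5% fell by every scaling. The tested members passed the count filter through their plasma libraries, so this tally and median draw on members chosen for their counts in plasma. miR-200b-5p, miR-200c-5p and miR-141-5p had few UMIs in both fluids and were not tested. miR-200a-3p had 2, 1, 4 and 1 UMIs in CSF, against 86, 105, 75 and 551 in plasma (-5.76 ± 0.69, edgeR adjusted p = 2.91e-06). miR-200c-3p had 17, 4, 24 and 30 UMIs in CSF, against 99, 144, 92 and 940 in plasma (-3.26 ± 0.64, edgeR adjusted p = 0.000336). The DOCA-salt male plasma stood far above the other plasma libraries for both, and the summed share of the family was 0.0210, 0.0161, 0.00876 and 0.00758% of CSF, against 0.153, 0.152, 0.232 and 0.8285% of plasma. The log2 ratio of the mean shares was -4.67, and -3.74 without that plasma library. Members of the 2 seeds fell together, with log2 fold changes of -3.67 for miR-200b-3p and -3.17 for miR-429-3p beside the values of miR-200a-3p and of miR-141-3p (-4.61).

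Leukocyte miRNAs split. miR-142a-3p, a miRNA of all blood lineages, held 125, 151, 353 and 361 UMIs in CSF, against 4314, 3304, 2259 and 3129 in plasma (-3.10 ± 0.45, edgeR adjusted p = 1.82e-05). miR-142a-5p (-2.91) and the lymphocyte miRNA miR-150-5p (-2.21) also fell by every scaling. miR-223-3p, a neutrophil miRNA, held 723, 1072, 2084 and 4951 UMIs in CSF, against 1094, 3929, 796 and 2619 in plasma and did not pass with TMM (0.63 ± 0.52, edgeR adjusted p = 0.328), while as a share it fell (-1.07, edgeR adjusted p = 0.0279). Of the 9 members, 3 fell and miR-181a-5p rose with TMM, and 8 fell as shares. Of all tested miRNAs, 25.6% fell and 26.2% rose with TMM and 63.7% fell as shares, and the list's median of -0.16 with TMM was near the -0.12 of all.

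Erythroid miRNAs split by strand and by hairpin. miR-451a, the red-cell miRNA that is made without Dicer, held 121, 186, 975 and 1016 UMIs in CSF, against 179, 164, 105 and 105 in plasma, and rose with TMM (2.54 ± 0.52, edgeR adjusted p = 0.000479) but not as a share (0.66, edgeR adjusted p = 0.185). miR-486a-5p, another red-cell miRNA whose counts nearly equalled those of its copy miR-486b-5p, held 707, 1649, 1856 and 4916 UMIs in CSF, against 10262, 8715, 2464 and 6579 in plasma (-1.04 ± 0.51, edgeR adjusted p = 0.0952). Its opposite strand miR-486a-3p fell with every scaling (-2.24, edgeR adjusted p = 0.000446). miR-486a-3p had 1.24, 1.29, 1.35 and 1.31 reads per UMI in plasma, where library medians were 4.59, 4.98, 6.82 and 4.0. Its UMI counts in plasma were thus high for its reads. miR-451a and miR-144-3p come from hairpins less than 10 kb apart on chromosome 11. miR-144-3p rose with TMM (1.67) but was not called as a share (-0.177), while miR-144-5p fell by every scaling (-2.05 with TMM). The summed erythroid share was 0.674, 1.17, 0.653 and 1.03% of CSF, against 7.86, 5.61, 3.48 and 4.62% of plasma.

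The let-7 family and miR-16-5p, the main filling of plasma, show how far a call can rest on the scaling. miR-16-5p took 1.44, 1.996, 4.45 and 2.15% of CSF, against 12.9, 9.95, 10.0 and 7.42% of plasma. Its log2 fold change was -0.15 ± 0.62 with TMM (SE, edgeR adjusted p = 0.857) and -2.01 as a share (edgeR adjusted p = 0.000317). The let-7 guides, which share the seed GAGGUAG, held 9.65, 10.7, 9.64 and 15.7% of CSF, against 23.8, 24.3, 23.5 and 23.9% of plasma. Of 10 members, 2 rose and none fell with TMM, where 26.2% of all tested miRNAs rose and 25.6% fell. As shares none rose and 7 fell, where 5.58% of all rose and 63.7% fell. The median log2 fold change of the family was 0.06 with TMM and -1.68 as shares, close to those of all tested miRNAs.

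Members of the family did not keep their proportions. let-7b-5p took 4.86, 5.70, 2.67 and 5.69% of CSF, against 3.71, 4.50, 3.76 and 4.37% of plasma, so its shares overlapped. let-7f-5p took 0.533, 0.534, 1.54 and 1.18% of CSF, against 5.32, 4.71, 5.24 and 5.14% of plasma, with no overlap. The log2 fold changes were 1.86 ± 0.57 for let-7b-5p (SE, edgeR adjusted p = 0.0106) and -0.50 ± 0.60 for let-7f-5p (edgeR adjusted p = 0.505) with TMM, and 0.21 and -2.43 as shares. Both carry the same seed. The difference between the pair was not tested.

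Mesenchymal miRNAs rose together with TMM. The miR-199 and miR-214 hairpins, known from fibroblasts and other connective tissue cells, gave 5 tested members, of 6 on the list, and all 5 rose with TMM, by 2.17 to 2.57 on the log2 scale, where 26.2% of all tested miRNAs rose. None was called as a share. miR-199a-3p held 4759, 10435, 7384 and 22116 UMIs in CSF, against 2891, 6604, 1116 and 3320 in plasma, or 2.001, 3.44, 0.980 and 2.04% of CSF, against 1.03, 1.96, 0.704 and 1.09% of plasma. Those shares overlapped. miR-199a-3p and miR-199b-3p are the same sequence and cannot be told apart by reads. miR-10b-5p, a miRNA of the Hox clusters, rose by both scalings, with 667, 2094, 1165 and 5566 UMIs in CSF, against 201, 720, 110 and 312 in plasma (3.39 ± 0.60 with TMM, edgeR adjusted p = 0.000134; 1.84 as a share, edgeR adjusted p = 0.00217).

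Genomic clusters differed in how evenly their members moved. Of the 26 tested members of the Dlk1-Dio3 imprinted cluster on chromosome 12, a large group of miRNAs of brain and embryo, 10 rose, 5 fell and 11 did not pass with TMM, with a median log2 fold change of 0.54. Of all tested miRNAs, 26.2% rose and 25.6% fell. As shares, 2 members rose and 11 fell, with a median of -0.952, where 5.58% of all tested miRNAs rose and 63.7% fell. By every scaling 2 rose and 4 fell, against 5.58% and 23.5% of all. miR-434-3p held 531, 363, 420 and 719 UMIs in CSF, against 35, 69, 9 and 59 in plasma (4.37 ± 0.50, edgeR adjusted p = 1.71e-06). miR-127-3p, which is needed for the placenta, held 224, 323, 255 and 641 UMIs in CSF, against 214, 860, 152 and 369 in plasma and did not pass (0.54 ± 0.45, edgeR adjusted p = 0.343). miR-666-5p fell (-2.65, edgeR adjusted p = 0.00014). The summed share of the cluster overlapped, at 1.05, 0.763, 0.364 and 0.404% of CSF, against 0.595, 0.937, 0.645 and 0.774% of plasma. The 3 tested products of the miR-199a and miR-214 hairpins on chromosome 1 lay within 0.24 of each other on the log2 scale.

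Members of one seed family could also have fitted changes of opposite sign. In the miR-17 seed family, whose clusters promote cell division, miR-20a-5p (1.67, edgeR adjusted p = 0.00103) and miR-17-5p (1.12, edgeR adjusted p = 0.0135) rose with TMM, while miR-93-5p, from another cluster, fell (-0.96, edgeR adjusted p = 0.0478). The call of miR-93-5p was marginal, since it was lost with DESeq2 size factors in edgeR (-0.88, edgeR adjusted p = 0.076), with a replicate block by sex and treatment, and without any 1 library (edgeR adjusted p from 0.0516 to 0.161). miR-93-5p held 301, 314, 583 and 817 UMIs in CSF, against 2001, 1727, 978 and 1313 in plasma. As shares, miR-93-5p fell (-2.57) and the others were not called.

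Which strand of a hairpin was more abundant often differed between the fluids. A ratio of the 5p to the 3p strand within 1 library does not change with the scaling of that library, so it is free of the choice above. Of 306 hairpins with both strands tested, the 5p to 3p ratio of the 4 CSF libraries did not overlap that of the 4 plasma libraries in 145 (47.4%). The strand that was more abundant on average was a different one in 113 (36.9%). Both held in 78 hairpins, and in the rest of the 113 the ratios overlapped between the fluids. By fitted change with TMM, both strands rose in 27 hairpins, both fell in 22, and the strands were called in opposite directions in 35. Of all tested miRNAs, 26.2% rose and 25.6% fell with TMM, so opposite calls also arise between unrelated strands. Whether the 35 exceed that number was not tested. The strands had the same sign in 171 of 306, and Pearson's r between the changes of the strands was 0.116 across hairpins, which are not independent. Many hairpins had few UMIs on 1 strand. Of the 42 hairpins whose strands both averaged at least 50 UMIs, the ratio did not overlap in 26 (61.9%). The more abundant strand differed in 14, 12 of them without overlap, and strands were called in opposite directions in 10.

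**Figure D4:**
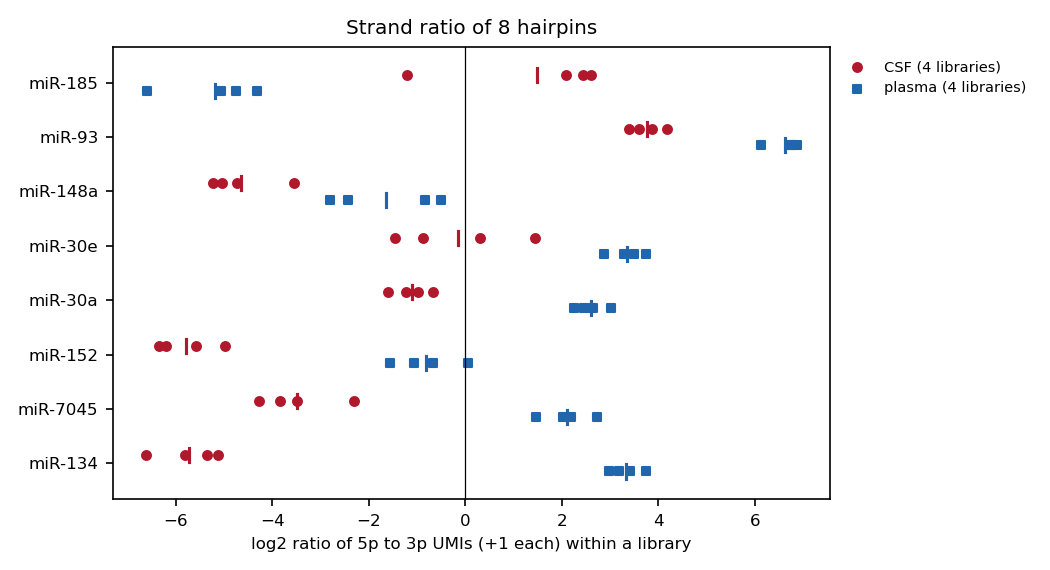
log2 ratio of 5p to 3p UMIs within a library, with 1 added to each count, for the 8 most abundant hairpins whose strands were called in opposite directions; red circles are CSF libraries, blue squares are plasma libraries and bars are means (n = 4 each). For miR-30a the 5p strand holds 0.331 to 0.631 times the UMIs of the 3p strand in CSF and 4.80 to 8.17 times in plasma.

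miR-30a is an example with many UMIs on both strands. Its 5p strand, the usual guide of the family, held 55, 88, 329 and 298 UMIs in CSF, against 775, 699, 517 and 904 in plasma. Its 3p strand held 168, 140, 769 and 586 UMIs in CSF, against 94, 110, 107 and 163 in plasma. The 5p to 3p ratio was 0.331, 0.631, 0.429 and 0.509 in CSF, against 8.17, 6.31, 4.80 and 5.52 in plasma, so the 3p strand led in every CSF library and the 5p strand in every plasma library. miR-30a-5p fell (-1.34 ± 0.44, edgeR adjusted p = 0.0149) and miR-30a-3p rose (2.37 ± 0.46, edgeR adjusted p = 0.000325) with TMM.

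miR-30e, whose strands share the seeds of the miR-30a strands, also had a lower 5p to 3p ratio in every CSF library than in any plasma library. The ratio was 1.23, 2.72, 0.362 and 0.544 in CSF, against 13.4, 11.3, 7.34 and 9.73 in plasma. The 5p strand led in both female CSF libraries and in every plasma library, and the 3p strand in both male CSF libraries. Over the miR-30 guides as a group, 4 of 5 members fell by every scaling, against 23.5% of all tested miRNAs, and their summed share was 0.118, 0.127, 0.135 and 0.124% of CSF, against 1.13, 1.03, 1.04 and 1.19% of plasma. Among their opposite strands, 2 of 5 tested rose and 1 fell with TMM, against 26.2% and 25.6% of all, and the summed shares overlapped.

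Of the 8 hairpins plotted, the strand ratio differed most between the fluids for miR-134, from the Dlk1-Dio3 cluster (miR-134-3p at chr12:109734184-109734203, plus strand, in an exon of the noncoding gene Mirg). miR-134-3p held 563, 421, 693 and 742 UMIs in CSF, against 3, 6, 2 and 6 in plasma. miR-134-5p, which limits dendritic spine size in neurons, held 9, 11, 6 and 17 UMIs in CSF, against 53, 63, 31 and 54 in plasma. The 3p strand was 56.4, 35.2, 99.1 and 41.3 times the 5p strand in CSF, against 0.0741, 0.109, 0.0938 and 0.127 times in plasma. miR-134-3p rose by 7.85 ± 0.52 and miR-134-5p fell by 1.52 on the log2 scale with TMM (edgeR adjusted p = 4.22e-09 and 0.00165).

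miR-185 turned the other way. miR-185-3p held 18, 15, 13 and 290 UMIs in CSF, against 1498, 2223, 779 and 4858 in plasma, while miR-185-5p held 80, 97, 75 and 125 UMIs in CSF, against 74, 65, 28 and 49 in plasma. The 5p to 3p ratio was 4.26, 6.13, 5.43 and 0.433 in CSF, against 0.05003, 0.0297, 0.0372 and 0.0103 in plasma. In both fluids the DOCA-salt male library had the lowest ratio and the most miR-185-3p. miR-185-3p fell (-4.35 ± 0.78, edgeR adjusted p = 0.000147) and miR-185-5p rose (1.54 ± 0.36, edgeR adjusted p = 0.00145).

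For miR-148a and miR-152, whose 3p strands share the seed CAGUGCA and are known to target DNA methyltransferase 1, the 3p strand led in every CSF library and its lead was smaller or absent in plasma. The 3p strand of miR-152 held 31.5, 82.1, 48.2 and 73.9 times the UMIs of the 5p strand in CSF, against 1.60, 2.95, 2.08 and 0.965 times in plasma. For miR-148a these ratios were 11.8, 33.3, 37.7 and 26.7 in CSF, against 1.41, 5.43, 1.80 and 6.96 in plasma. With TMM, all 3 tested members of this seed rose, where 26.2% of all tested miRNAs rose. The least was miR-148b-3p (0.997). miR-152-3p rose by 2.16 ± 0.39 (edgeR adjusted p = 0.000171) and miR-148a-3p by 1.65 ± 0.46 (edgeR adjusted p = 0.00551). As shares neither miR-152-3p nor miR-148a-3p was called. miR-93 kept its 5p strand ahead in all libraries, with a 5p to 3p ratio of 12.1, 10.5, 18.3 and 14.6 in CSF, against 117.8, 108.0, 69.9 and 109.5 in plasma.

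Sequence features of the mature miRNAs are given as counts, with no test. RefSeq held a sequence for 1001 of the 1146 tested miRNAs. The median G+C content was 54.5% for miRNAs called higher in CSF with TMM, 57.9% for those called lower and 56.5% for all tested. The motif GGAG, described for human miRNAs sorted into exosomes and searched here on the strand of the mature miRNA, was in 17.6% of those higher in CSF, 17.2% of those lower and 17.98% of all tested. Of the 53 with a sequence that were higher in CSF by all 4 scalings, 14 held it (26.4%). Older entries, with a number under 1000 in the name, made up 43.3% of the miRNAs called higher in CSF, 32.8% of those called lower and 37.8% of all tested. Among the highest and lowest calls were such little-studied entries, of which miR-8092 held 5, 4, 4 and 18 UMIs in CSF, against 228, 364, 227 and 520 in plasma (-4.79 ± 0.47, edgeR adjusted p = 4.34e-07). For miR-7674-5p, in an intron of Nup214, the counts were 5, 1, 7 and 17 in CSF, against 240, 370, 111 and 555 in plasma (-4.71 ± 0.53, edgeR adjusted p = 1.43e-06).

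Whether the difference between fluids itself differed by sex or treatment was tested as interaction terms in 1 fit over all 8 libraries, with little replication behind it. With TMM, 1 miRNA was called for sex by edgeR (0.0873% of 1146, with 154 at an unadjusted p under 0.05) and 0 for treatment (0.0%, with 93 at an unadjusted p under 0.05). The 1 called was miR-8095, a little-known miRNA in an intron of Dgkg, with 107, 1146, 45 and 26 UMIs in CSF, against 8, 6, 55 and 14 in plasma. Its CSF over plasma difference was lower in males than in females by a log2 difference of -6.33 (edgeR adjusted p = 0.00406). A single library, the DOCA-salt female CSF, held most of its molecules, and without that library, or without the DOCA-salt male CSF, 0 miRNAs were called for sex, while leaving out the baseline male CSF gave 14. As shares, 325 miRNAs were called for sex, all with a lower CSF over plasma difference in males, in whose CSF libraries the striated muscle guides took 56.6 and 49.1%, against 38.7 and 36.3% in the female CSF libraries. The part of that filling in the calls was not tested.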

How the data were processed

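Exosomal small RNA was measured in 4 CSF and 4 plasma libraries. Per the labels' protocols, the Qiagen miRNeasy Micro Kit served for RNA and the QIAseq miRNA kit, which adds UMIs, for libraries. Per the submitters' processing notes, Cutadapt 2.7, Bowtie 1.3.0 and edgeR were used, and the builds mm10 and GRCm38 were named. The deposited UMI and read columns hold raw counts per mature miRNA and library. The deposited CPM columns hold UMI counts scaled to the library total, as recomputed here, and served only as a check. Coordinates are those of the deposited tables, and host genes come from GENCODE M21.

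Low UMI counts were removed by filterByExpr, TMM set the scaling, and edgeR 4.0.16 was fitted (R 4.3.3, quasi-likelihood, fluid as the only term, Benjamini-Hochberg adjustment over 1146 miRNAs, threshold 0.05). Standard errors and fold changes come from that fit. Interactions of fluid with sex and with treatment came from 1 model over all 8 libraries with 2 residual degrees of freedom. The fit was tested on simulated data. Single values per library were compared by exact permutation. Strand ratios add 1 UMI to each strand. Alternatives were other scalings, DESeq2 1.42.0, other count filters, read counts, other models, an exchange of miR-206-3p with miR-1a-3p in CSF, and each library left out.

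Named miRNAs are the 5 of highest mean share per fluid, up to 12 per direction of largest change among those called with a mean share of at least 0.05% in a fluid and the same direction in all 4 pairs, up to 4 of highest share and both extremes of each list, up to 5 of at least 0.5% with the smallest change, up to 8 hairpins with strands called in opposite directions, and up to 5 called for an interaction. Members with values outside this rule were named after their values were seen. The members and lists were chosen with earlier results of these data known. Libraries held 158572 to 1082504 UMIs.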

Additional observations from a re-analysis of the deposited data

Results flagged for a closer look

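Of 316 groups of 4 libraries examined, 25 had a library apart from the other 3 by Dixon's criterion, and chance gives such a library in about 1 in 20 groups.

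The DOCA-salt male plasma was the library apart in most of the epithelial entries. It held 0.8285% of UMIs in the miR-200 family, where the next plasma library held 0.232%. By member, it held 0.181% in miR-200a-3p, 0.155% in miR-141-3p and 0.309% in miR-200c-3p. It also stood apart for the ciliated epithelium list (0.136%), miR-34b-3p (0.108%), miR-183-5p (0.0916%), miR-185-3p (1.60%, next 0.659%) and miR-8113 (0.325%).

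The baseline female plasma was apart for the miR-25/92 family (1.18%, next 0.824%), miR-92b-3p (0.0268%) and the neuronal miR-128-3p (0.267%). The baseline male plasma was apart for miR-26b-5p (0.797%) and miR-7045-3p (0.0530%), and the DOCA-salt female plasma was low for miR-7222-3p (0.149%).

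Within CSF, the baseline female was apart for miR-133a-3p (5.12%, next 4.32%), miR-138-5p (0.00336%) and miR-34b-3p (0.0101%). The DOCA-salt female CSF was apart for miR-27a-3p (0.0744%) and, at few UMIs, miR-141-3p (0.00329%). The baseline male CSF was apart for miR-29c-3p (0.401%, next 0.114%). The DOCA-salt male CSF was apart for the choroid plexus miRNA miR-204-5p (0.0351%, next 0.0219%) and for miR-1929-3p (0.00323%).

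miR-8095 stood apart in both fluids, with 0.377% of the DOCA-salt female CSF and 0.0347% of the baseline male plasma. Its CSF over plasma difference differed between sexes by the interaction test, male minus female -6.33 on the log2 scale (edgeR adjusted p = 0.00406).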

How the results depend on the processing

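The scaling moved the results most. As shares, 64 miRNAs were called higher and 730 lower in CSF, and with totals without the striated muscle lists 160 and 473, against 300 and 293 with TMM. Other settings kept the total of 593 within 1.5 times, and leaving out each library in turn gave 531 to 587. Same-combination CSF and plasma libraries did not deviate together from their fluid means (r from -0.066 to 0.016, 1 of 4 CSF libraries closest to its own plasma library). With 1 library per combination, these values cannot decide whether the libraries of a combination are paired. With a replicate block by sex and treatment 558 were called, 280 higher and 278 lower. Without the striated muscle lists, the CSF minus plasma difference was -37.05 in effective number (exact permutation p = 0.0857), 6.48 percentage points in the share of the 10 most abundant miRNAs (p = 0.114, exact permutation) and -153.7 in miRNAs detected at equal depth (exact permutation p = 0.0571). That last difference was -382.9 to -232.6 with each library left out, against -322.6, and did not pass without any 1 plasma library. The strand ratios did not overlap in 43.8% of hairpins by read counts and in 48.4 to 53.9% with a library left out, against 47.4%; those settings, and the minimum of 50 UMIs, were chosen after seeing the data.

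Of 2278 alternative values over 127 named miRNAs, 2014 kept direction and call, and 58 changed sign without being called in either fit. The call was lost in 124 and gained in 54 without a change of sign. The other 28 changed sign and were called either with TMM or as shares, but not in both. None of the 28 was thus called in opposite directions. All 28 were as shares: miR-195a-5p (-0.60), miR-15b-5p (-0.63), miR-322-5p (-0.53), miR-194-5p (-1.38), miR-223-3p (-1.07), miR-342-3p (-0.98), miR-181a-5p (-0.69), miR-143-3p (-1.32), miR-143-5p (-1.35), miR-145a-3p (-1.58), miR-7a-5p (-0.54), miR-338-3p (-0.42), miR-211-5p (-1.32), miR-203-3p (-0.022), miR-205-5p (-1.12), miR-20a-5p (-0.037), miR-17-5p (-0.62), miR-30e-3p (-0.13), miR-30b-3p (-1.25), miR-29b-3p (-1.34), miR-99b-5p (-1.41), miR-10a-5p (-0.059), miR-125b-5p (-0.21), miR-125a-5p (-0.13), miR-24-3p (-1.08), miR-27b-3p (-0.43), miR-26b-5p (-1.38) and let-7i-5p (-1.67).

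Interaction calls were few and unsteady. For sex, 325 were called as shares (all 325 lower), 12 with DESeq2 size factors (9 higher, 3 lower), 6 with read counts (3 higher, 3 lower), 27 without a count filter (21 higher, 6 lower) and 0 to 14 with each library left out (0 to 7 higher, 0 to 7 lower). For treatment, the counts were 2 as shares (1 higher, 1 lower), 2 with DESeq2 size factors (1 higher, 1 lower), 3 without a filter (1 higher, 2 lower) and 0 to 5 with each library left out (0 to 4 higher, 0 to 2 lower). The cause was not tested.

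As log2 ratios of mean list shares, CSF over plasma, leaving striated muscle out of the totals gave erythroid -1.71, miR-15/16 family -0.92, let-7 guides -0.12, liver -1.01, leukocyte -1.25, endothelial -1.53, smooth muscle -0.31, mesenchymal 1.67, neuron 0.87, oligodendrocyte 0.99, choroid plexus 1.14, keratinocyte 0.48, miR-17 seed family -1.43, miR-25/92 family -0.99, miR-30 guides -2.17, miR-30 opposite strands 0.80, miR-29 family 1.23, miR-10/99/100 family 1.23, miR-125 family 0.77, miR-23/27/24 clusters 0.68, miR-26 family 0.079, miR-181 family -0.21 and Dlk1-Dio3 cluster 0.65. The miR-26 family, whose fluids did not overlap before, thereby reversed, and the neuron, keratinocyte, miR-30 opposite strand, miR-125, miR-23/27/24 and Dlk1-Dio3 lists, whose fluids overlapped, changed sign from between -0.46 and -0.064. Read counts reversed the smooth muscle list to 0.26, turned the miR-23/27/24 clusters to 0.41 from -0.17 and gave the mesenchymal list 1.40. With each library left out, the endothelial list lay between -3.10 and -2.22, the mesenchymal list between 0.48 and 1.16, the miR-200 family between -4.98 and -3.74 (its highest without DOCA-salt male plasma) and the miR-183 cluster between 4.59 (without baseline female CSF) and 5.94 (without DOCA-salt male plasma). The sign changed when 1 library was left out for the miR-29 family (-0.30 without baseline male CSF, against 0.19) and for the oligodendrocyte, neuron, miR-125, miR-23/27/24 and Dlk1-Dio3 lists, all within -0.58 and 0.25. Depth limits miRNAs of a few UMIs, such as miR-200a-3p in CSF, and p-values cover 1 library per combination.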

Other observations

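Several other groups of miRNAs moved member by member between CSF and plasma. miR-29a-3p and miR-29c-3p, which limit collagen production, rose with TMM (1.96 and 2.73 on the log2 scale, edgeR adjusted p = 0.00517 and 0.000982), whereas miR-29b-3p, of the same seed, did not pass (0.42, edgeR adjusted p = 0.405). As shares miR-29a-3p and miR-29c-3p were not called (0.176 and 0.835, edgeR adjusted p = 0.728 and 0.1265), and miR-29b-3p fell (-1.34, edgeR adjusted p = 0.00823). miR-29c-3p held 235, 346, 3023 and 850 UMIs in CSF, against 216, 328, 208 and 254 in plasma, so the baseline male CSF stood above the rest. miR-125b-5p and miR-125a-5p, abundant in brain and many other tissues, rose with TMM (1.62 and 1.51, edgeR adjusted p = 0.0411 and 0.0275) and were not called as shares (-0.21 and -0.13). miR-23a-3p rose with TMM (2.26, edgeR adjusted p = 0.000429), while miR-27a-3p from the same cluster did not pass (-0.34, edgeR adjusted p = 0.493). As shares miR-23a-3p was not called (0.77, edgeR adjusted p = 0.115), and miR-27a-3p fell (-1.93, edgeR adjusted p = 0.000723).

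The endothelial miRNA miR-126a-3p held 403, 604, 4540 and 2747 UMIs in CSF, against 3380, 4206, 4646 and 4832 in plasma. It did not pass with TMM (-0.55 ± 0.57, edgeR adjusted p = 0.439) and fell as a share (-2.51, edgeR adjusted p = 8.28e-05). Its opposite strand miR-126a-5p fell by every scaling (-1.55 with TMM, edgeR adjusted p = 0.00414). Of the liver list, miR-122-5p, the main miRNA of hepatocytes, held 183, 185, 609 and 287 UMIs in CSF, against 1127, 703, 535 and 1230 in plasma and did not pass with TMM (-0.80, edgeR adjusted p = 0.124). As a share miR-122-5p fell (-2.465, edgeR adjusted p = 5.86e-05). miR-192-5p, of liver, gut and kidney, rose with TMM (2.16, edgeR adjusted p = 5.99e-05) but was not called as a share (0.58, edgeR adjusted p = 0.241). The smooth muscle miRNA miR-145a-5p rose with TMM (1.64, edgeR adjusted p = 0.00147), and miR-143-3p, from the same cluster, did not pass (0.32, edgeR adjusted p = 0.598). miR-34b-3p, of ciliated epithelia, held 24, 13, 25 and 34 UMIs in CSF, against 130, 190, 78 and 329 in plasma, and fell by every scaling (-2.14 with TMM, edgeR adjusted p = 0.000205).

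Little-studied miRNAs were among the largest rises in CSF. miR-6947-5p, in an intron of Actr8, held 500, 364, 925 and 649 UMIs in CSF, against 12, 11, 8 and 21 in plasma (6.27 ± 0.49, edgeR adjusted p = 3.62e-08). miR-1967 held 596, 316, 478 and 770 UMIs in CSF, against 24, 18, 16 and 21 in plasma (5.47 ± 0.46, edgeR adjusted p = 7.92e-08). miR-5110 fell, with 21, 17, 22 and 37 UMIs in CSF, against 1339, 1212, 83 and 1021 in plasma (-4.45 ± 0.60, edgeR adjusted p = 8.15e-06), and the baseline male plasma stood below the other plasma libraries.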
